A study of Mus musculus with 2 samples.

Results

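The genes of the translation initiation and elongation factors were examined for binding of Msl1 and Nsl1 in mouse embryonic stem cells (mESCs). The set comprised every protein-coding gene on an autosome whose symbol begins with Eif1, Eif2, Eif3, Eif4, Eif5, Eif6, Eef1 or Eef2. The rule found 64 gene records of 21410 autosomal protein-coding genes, with 63 different symbols, because Eef2k is annotated as 2 records. By function 47 of the 64 are translation factors. The others include kinases of eIF2alpha and eEF2, proteins that bind eIF4E and a few more. Among them are also the Argonaute genes under their old symbols Eif2c1 to Eif2c4, which share only the prefix. Eif1ax, Eif2s3x and Eif2s3y lie on the sex chromosomes and are outside the rule.

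The study asked where the MSL and NSL complexes, which share the histone acetyltransferase Mof, are located in the genome. Chromatin of wt mESCs (background 129P2/OlaHsd, passage P26, with E14 given under age) was precipitated with an antibody against Msl1 or against Nsl1, and 1 library was sequenced per antibody. Both libraries therefore share cells and genotype but differ in antibody, library kit and read length, and these cannot be told apart in any comparison between them. No input library was analysed here. The Msl1 library held 19483142 distinct nuclear read positions and the Nsl1 library 24883001. With 1 library per antibody there is no replicate check and no test between groups, and the intervals given are exact 95% intervals that cover counting error only.

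Translation begins when eIF2, loaded with GTP, brings the initiator tRNA to the small ribosomal subunit, while eIF3, eIF1 and eIF1A hold that subunit open for the mRNA. The eIF4F complex recruits the mRNA: eIF4E binds the cap, eIF4G is the scaffold and eIF4A the helicase. After start codon recognition eIF5 and eIF5B let the large subunit join, and the elongation factors eEF1 and eEF2 then deliver each aminoacyl-tRNA and move the ribosome along. Cells throttle initiation mainly at eIF2, which kinases phosphorylate and eIF2B recycles, and at eIF4E, which the 4E-binding proteins hold back.

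Reads were counted by the middle of their fragment. The level at the transcription start site (TSS) is the number of reads within 500 bases, divided by the mean level of the same library from 5 to 50 kb on both sides. The Msl1 to Nsl1 ratio compares reads within 2 kb of the TSS, each scaled to the distinct reads of its library. It has no absolute scale, and was read against its median over all autosomal TSSs, 1.28. The downstream ratio is the read density from 500 to 2000 bases downstream divided by that within 500 bases of the TSS.

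The promoters of 3 of the 6 genes with the highest ratio and of 2 of the 3 with the lowest, chosen after their values were seen, are shown first, from 150 bases before the TSS to 9 bases after its first base (mm9, strand of the gene). Capitals mark motif matches. The searched motifs were the TATA box as TATAAA, the site of ETS factors as CCGGAAG, the E-box as CACGTG, the CCAAT box by its name, the GC box as GGGCGG, the site of YY1 as AAGATGGCG, the cyclic AMP response element (CRE) as TGACGTCA, the site of NRF1 as GCGCATGCG and that of ZNF143 as CTACAATTC. Both strands were searched, and none of the motifs holds another.
Eif4g2, chr7:118226535-118226694, minus strand: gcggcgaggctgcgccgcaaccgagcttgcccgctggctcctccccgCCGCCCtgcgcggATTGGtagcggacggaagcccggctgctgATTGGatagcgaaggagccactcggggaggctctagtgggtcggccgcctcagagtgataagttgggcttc
Eif4a2, chr16:23107367-23107526, plus strand: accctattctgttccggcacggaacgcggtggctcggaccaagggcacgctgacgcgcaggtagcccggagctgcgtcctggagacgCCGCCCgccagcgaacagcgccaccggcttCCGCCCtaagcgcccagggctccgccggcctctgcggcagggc
Eef2, chr10:80639226-80639385, plus strand: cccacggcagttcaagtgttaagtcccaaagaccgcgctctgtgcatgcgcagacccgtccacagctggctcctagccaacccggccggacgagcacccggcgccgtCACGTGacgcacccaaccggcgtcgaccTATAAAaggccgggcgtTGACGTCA
Eif3m, chr2:104857228-104857387, minus strand: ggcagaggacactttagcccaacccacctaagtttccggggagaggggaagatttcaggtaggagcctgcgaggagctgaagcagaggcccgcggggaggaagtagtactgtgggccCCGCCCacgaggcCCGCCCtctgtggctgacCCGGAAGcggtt
Eif4e2, chr1:89110339-89110498, plus strand: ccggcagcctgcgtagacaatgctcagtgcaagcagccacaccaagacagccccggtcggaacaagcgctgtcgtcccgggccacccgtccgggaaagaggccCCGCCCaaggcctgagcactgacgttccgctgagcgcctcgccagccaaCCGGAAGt
Eif4g2, Eif4a2 and Eef2 had high ratios and Eif3m and Eif4e2 low ones. Both genes of low ratio shown hold CCGGAAG within 2 bases of the TSS, and the 3 genes of high ratio shown do not hold it. This comes from the genes displayed: Eif2b1 and Eif2b3, also of low ratio, lack CCGGAAG from 250 bases before to 50 after the TSS, and Eif4ebp2, the second highest in ratio, holds it there. Eef2 alone of the 5 has a TATAAA, together with an E-box and a CRE.

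At these genes Nsl1 reads gathered at the TSS and Msl1 reads just inside the gene, and the median level of each protein was above that of all genes. Over the 63 genes with at least 20 reads at the TSS in both libraries together, the median Msl1 level was 3.03 times the local level, against 2.19 over the 17004 autosomal TSSs that passed the same filter. The median Nsl1 level was 3.21 times the local level, against 2.0. Over the 47 translation factors alone these medians were 3.03 for Msl1 and 3.72 for Nsl1. Msl1 was at least 3 times the local level at 36 of the 63 genes (57.1%, against 28.8% of all TSSs), and Nsl1 at 35 (55.6%, against 29.6%). Both were past that level at 25 genes (39.7%, against 14.5%). The second record of Eef2k, with 4 Msl1 and 5 Nsl1 reads at its start, did not reach 20 reads, and both records of Eef2k fell short of 100 reads within 2 kb. These values describe 2 libraries and were not tested between groups of genes.

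**Figure D1:**
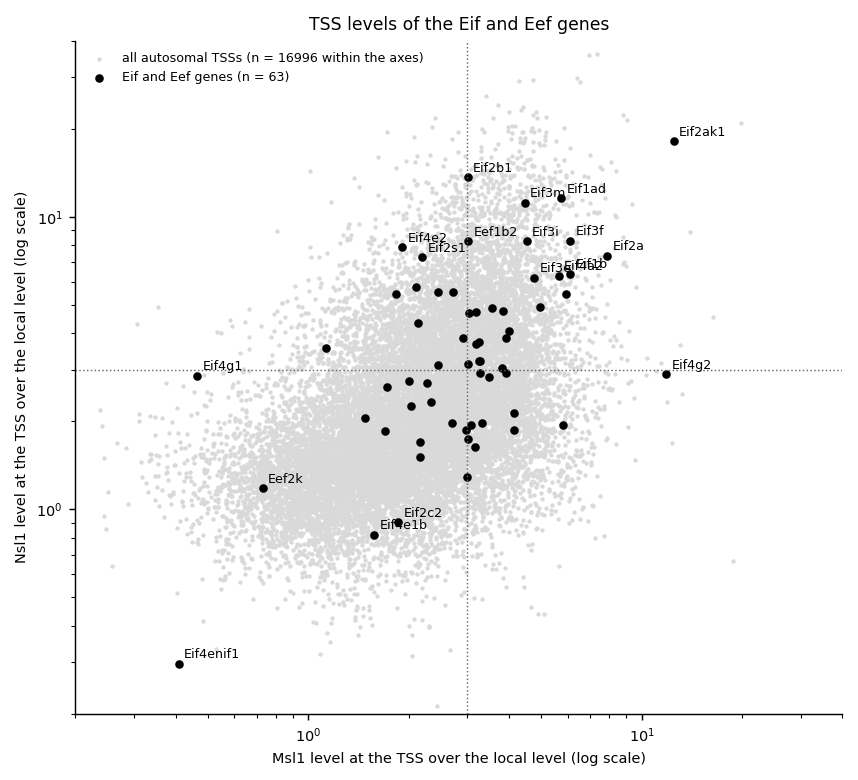
Msl1 level (x axis) against Nsl1 level (y axis) at the TSS, each as a multiple of the local level on a log scale. Black points are the 63 Eif and Eef genes and grey points all autosomal TSSs within the axes (16996 of 17004), with dotted lines at 3 times the local level. The medians of the black points are 3.03 and 3.21, with Eif4g2 far to the right at an Nsl1 level of 2.89 and Eif2b1 high at an Msl1 level of 3.01. Eif2ak1, at the upper right, has a local level of few unique positions.

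The average profiles of the proteins were highest in different places. Nsl1 reads of the Eif and Eef genes were densest in the 100 bases after the TSS, at 3.86 reads per TSS and 100 bases for every 10000000 distinct reads, 5.75 times the value from 2 to 3 kb upstream. Msl1 reads had a dip where Nsl1 was high, with 0.807 in the 100 bases before the TSS, although bins farther upstream were as low as 0.578. They were densest from 300 to 400 bases downstream, at 4.20, which was 5.92 times the upstream value, and a smaller shoulder of 1.82 lay 300 to 400 bases upstream. Over all TSSs the same bins of highest density were -100 to 0 bases for Nsl1 (2.15) and 200 to 300 bases for Msl1 (2.10). The Msl1 density of the Eif and Eef genes stayed above the middle of its range over 800 bases, and that of Nsl1 over 500 bases.

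**Figure D2:**
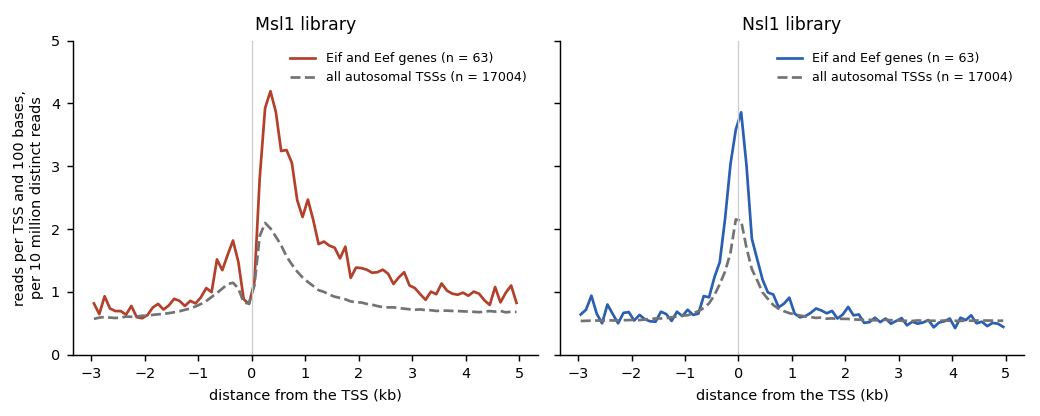
Average read density around the TSS in bins of 100 bases (x axis, distance in kb; y axis, reads per TSS and bin for every 10000000 distinct reads) for Msl1 (left) and Nsl1 (right). Coloured lines are the 63 Eif and Eef genes and dashed lines all 17004 TSSs; Msl1 has its top of 4.20 downstream and a dip at the TSS, while Nsl1 has its top of 3.86 at the TSS.

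The shift between the proteins was also seen gene by gene. For each of the 62 genes with at least 100 reads within 2 kb, the window of 300 bases with most reads was found between 1500 bases upstream and 2500 bases downstream. Its centre lay at a median of 365 bases for Msl1 and of -10 bases for Nsl1. The Msl1 window was the more downstream of the pair at 54 of the 62 genes (87.1%), against 66.9% of the 14469 TSSs past the same minimum. The comparison was not matched for level, and all TSSs had lower median levels, 2.19 for Msl1 and 2.0 for Nsl1. The Nsl1 window lay within 250 bases of the TSS at 43 genes (69.4%, against 50.1%), and the Msl1 window at 12 (19.4%, against 21.1%).

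**Figure D3:**
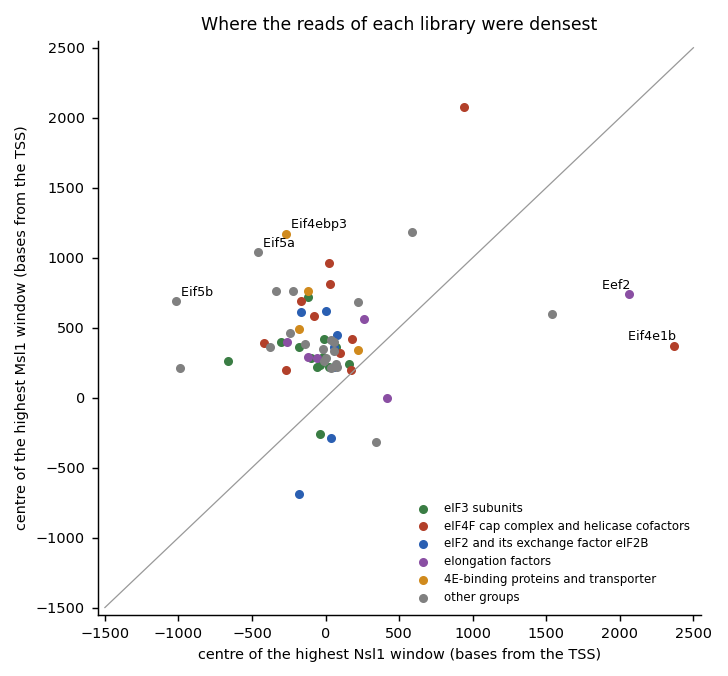
Centre of the window of 300 bases with most Nsl1 reads (x axis) against that with most Msl1 reads (y axis), in bases from the TSS, for 62 genes coloured by role. Points above the diagonal, 54 of 62, have their Msl1 window farther downstream; Eef2 and Eif4e1b lie far to the right of it.

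Msl1 reads reached farther into the genes than Nsl1 reads. The median downstream ratio was 0.724 for Msl1 (0.780 over all TSSs) and 0.346 for Nsl1 (0.580). This ratio divides by the density at the TSS, which was higher in the set. Over the local level instead, the median downstream density was 2.56 for Msl1 (1.68 over all TSSs) and 1.21 for Nsl1 (1.18). Fragments were estimated at 218 bases for Msl1 and 134 for Nsl1, which sets the shift of each library. With the same shift of 100 bases in both, the median downstream ratios were 0.726 for Msl1 and 0.325 for Nsl1, so the difference was as large with equal placement. From 2 to 5 kb downstream the median Msl1 level was still 1.52 times the local level (1.14 over all TSSs), whereas the Nsl1 level was 0.934 times (1.01). The highest Msl1 downstream ratios among genes with at least 20 Msl1 reads at the TSS were those of Eif5, Eef2 and Eif4a2. Among genes with at least 20 Nsl1 reads there, the highest Nsl1 ones were those of Eef2, Eif4e and Eif2ak4, while Eif2c2, with 12 Nsl1 reads, had a value of 1.72 (0.86 to 3.68).

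The median Msl1 to Nsl1 ratio of the 62 genes was 1.45, against 1.28 over all TSSs, and that of the 47 translation factors was 1.36. The quartiles, 1.13 and 1.95 for the 62 genes and 0.976 and 1.67 over all TSSs, spanned overlapping ranges. The ratio was at least 1.5 times the median of all TSSs (1.92 or more) at 18 genes (29%, against 15.5% of all TSSs). It was at most that median divided by 1.5 (0.851 or less) at 4 genes (6.45%, against 16.1%). The excess of high ratios rested on reads away from the TSS. When the ratio was taken within 500 bases instead, the median of the genes was 1.07 and that of all TSSs 1.09, with 13 genes past the upper threshold (25.2% of all TSSs were) and 14 past the lower one (26.3% of all TSSs were). In all 11 genes went from above to below the median of all TSSs, among them Eif4g1, Eif6 and Eif5a, and 5 went the other way.

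**Figure D4:**
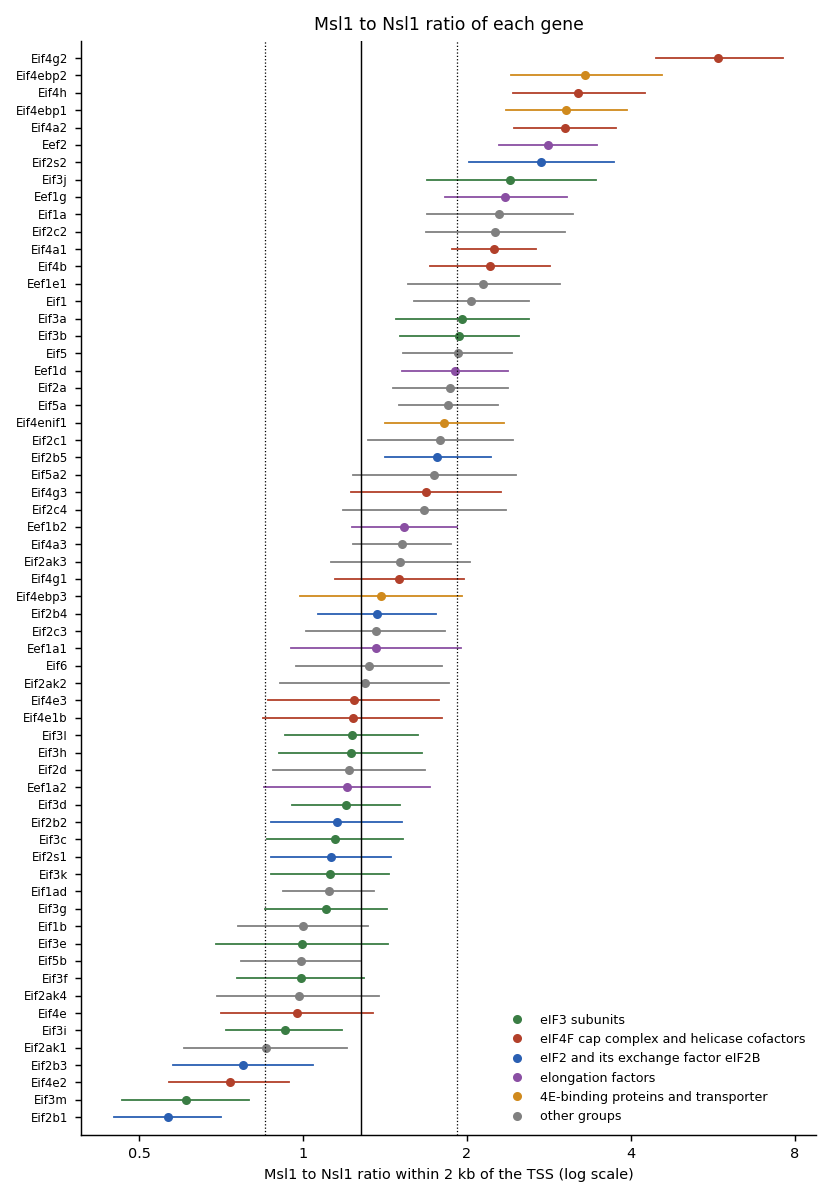
Msl1 to Nsl1 ratio within 2 kb of the TSS (x axis, log scale) of the 62 genes, ordered by ratio and coloured by role, with exact 95% intervals for counting error. The solid line is the median of all TSSs, 1.28, and the dotted lines are 0.851 and 1.92; Eif4g2 at 5.78 stands apart at the top and its interval overlaps only that of Eif4ebp2.

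Genes of the eIF4F complex, its helicase cofactors and relatives of its subunits gave the highest ratio and 1 of the 4 low ones. Both extremes were at relatives, Eif4g2 and Eif4e2. Of the 11 genes of this group 5 were past the upper ratio threshold (15.5% of all TSSs were), and the ratios of the group ran from 0.733 to 5.78. Msl1 was at least 3 times the local level at 5 of them (28.8% of all TSSs) and Nsl1 at 4, near the share of all TSSs (29.6%).

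Eif4g2 encodes a relative of eIF4G that lacks the part that binds eIF4E and serves initiation without the cap. It had 160 Msl1 and 33 Nsl1 reads at the TSS, which were 11.9 times (10.1 to 13.8) and 2.89 times (1.99 to 4.06) the local levels. Within 2 kb there were 317 Msl1 and 70 Nsl1 reads, a ratio of 5.78 (4.45 to 7.60). Its Msl1 window of most reads held 113 reads, against 82 or fewer in that of every other gene of the set. A further annotated start 835 bases downstream lies in the same broad stretch of Msl1 reads, with 159 Msl1 and 18 Nsl1 reads around it. Another start 8781 bases downstream had 27 Msl1 and 11 Nsl1 reads.

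Msl1 reads were denser downstream than at the TSS at the genes of both eIF4A helicases of initiation. At Eif4a3, the helicase gene of the exon junction complex, they were not, with an Msl1 downstream ratio of 0.69 (0.506 to 0.941). That ratio is relative to an Msl1 level at the Eif4a3 TSS of 4.97 times the local level, so it does not show an absence of Msl1 downstream. Eif4a2 had 60 Msl1 and 81 Nsl1 reads at the TSS, so that the ratio within 500 bases was 0.946, below the median of all TSSs. Within 2 kb it had 291 and 123 reads, and the ratio was 3.02 (2.44 to 3.76). Its downstream ratios were 2.16 (1.61 to 2.93) for Msl1 and 0.230 (0.144 to 0.358) for Nsl1, the intervals of which do not overlap. Eif4a1, the more widely used helicase, had 352 Msl1 and 201 Nsl1 reads within 2 kb, the highest Msl1 number in the set, and a ratio of 2.24 (1.88 to 2.67). Within 500 bases the ratio of Eif4a1 was 1.29 (0.939 to 1.78), no longer past the upper threshold there. Its downstream ratio was 1.86 (1.44 to 2.43) for Msl1 and 0.683 (0.497 to 0.940) for Nsl1. Eif4h, whose product stimulates the helicase, had 185 Msl1 and 74 Nsl1 reads and a ratio of 3.19 (2.43 to 4.24).

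The cap-binding genes differed among themselves. Eif4e3 had 31 Msl1 and 17 Nsl1 reads at the TSS and a ratio of 1.24 (0.861 to 1.78), which was 2.33 (1.25 to 4.49) within 500 bases. Eif4e itself had 17 Msl1 and 28 Nsl1 reads at the annotated TSS, 1.72 times (1.0 to 2.76) and 2.62 times (1.74 to 3.78) the local levels, and a ratio of 0.975 (0.706 to 1.34). Its window of most reads lay 940 bases downstream for Nsl1, with 26 reads, and 2080 bases for Msl1, with 14. Eif4e2, a cap-binding relative linked to repression of translation, had 27 Msl1 and 118 Nsl1 reads at the TSS. Nsl1 was thus 7.88 times the local level (6.53 to 9.44) and Msl1 1.91 times (1.26 to 2.78), and the ratio within 2 kb was 0.733 (0.568 to 0.941). Eif4e1b, known for its expression in oocytes, had 19 and 11 reads, with Nsl1 at 0.817 times the local level (0.408 to 1.46).

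At Eif4g1, the main scaffold gene, the proteins had most of their reads in different places around the start used. Which of its annotated starts is used in mESCs is not known from these data, and the values depend on it, as they do at Eif5 and Eif5a. The TSS with most annotated transcripts had 9 Msl1 reads, 0.464 times the local level (0.212 to 0.880), and 46 Nsl1 reads, 2.86 times (2.09 to 3.81). No Msl1 read lay in the 600 bases after that TSS, and the next 200 bases held 19. The downstream ratio was 6.81 (3.44 to 15.4) for Msl1 and 0.391 (0.234 to 0.643) for Nsl1. Around an annotated start 1091 bases farther on there were 64 Msl1 and 16 Nsl1 reads, and the ratio of those was 5.11 (2.92 to 9.47), against 0.25 (0.108 to 0.517) around the first start. All bases within 500 of the first start were unique at both read lengths. At Eif4g3 the TSS had 27 Msl1 and 26 Nsl1 reads. A second start of Eif4g3, 11730 bases downstream, had 25 and 8, with ratios of 1.33 (0.745 to 2.37) and 3.99 (1.75 to 10.2) whose intervals overlap.

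**Figure D5:**
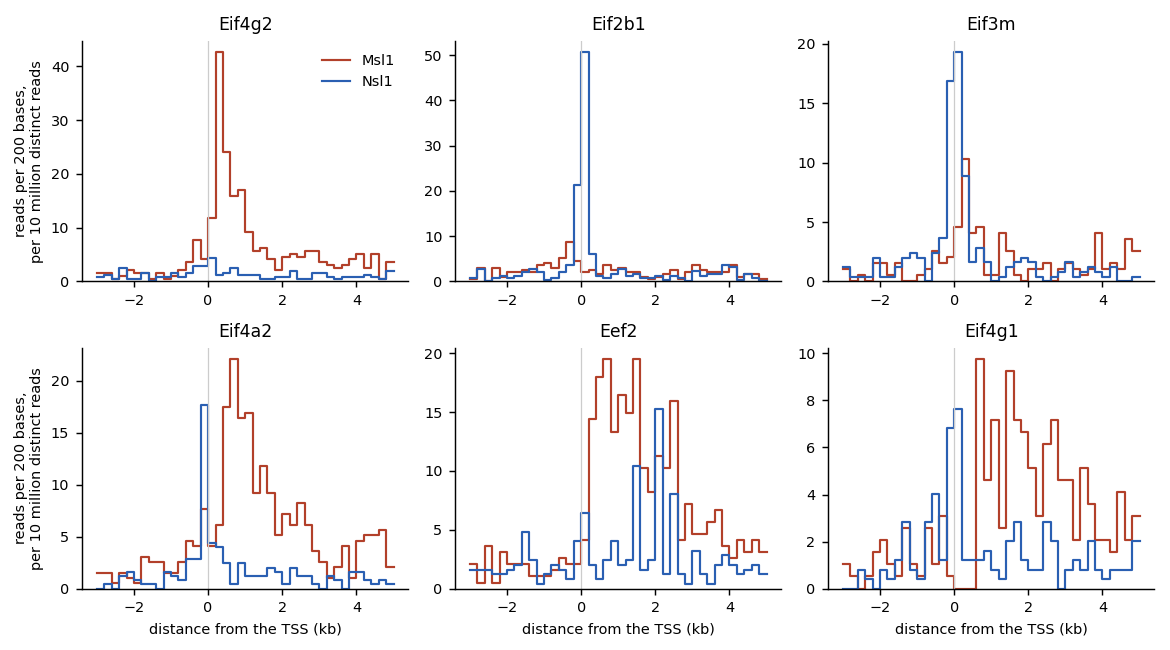
Reads in bins of 200 bases (y axis, reads for every 10000000 distinct reads; x axis, distance from the TSS in kb) of Msl1 (red) and Nsl1 (blue) at 6 genes, each panel with its own y scale. Msl1 leads at Eif4g2 and Nsl1 at Eif2b1 and Eif3m, while at Eif4a2 and Eif4g1 a Nsl1 peak at the TSS is followed by Msl1 downstream.

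Of the 4 genes of proteins that bind eIF4E outside the complex none had Nsl1 at 3 times the local level (29.6% of all TSSs did), and 2 had Msl1 at that level (28.8% of all TSSs). The lowest Nsl1 value of these, that of Eif4enif1, rests on an unusual local level, and the other Nsl1 values ran from 1.93 to 2.05. Eif4ebp1, a target of mTOR that releases eIF4E when phosphorylated, had 90 Msl1 and 26 Nsl1 reads at the TSS. Msl1 was 5.81 times the local level (4.67 to 7.14) and Nsl1 1.95 times (1.27 to 2.85), and the ratio was 3.03 (2.35 to 3.94). Eif4ebp2 had 147 Msl1 and 57 Nsl1 reads within 2 kb and a ratio of 3.29 (2.41 to 4.55). Eif4enif1, the eIF4E transporter, showed the lowest levels of the 63 genes in both libraries, 0.408 times (0.289 to 0.560) for Msl1 and 0.296 times (0.219 to 0.391) for Nsl1. Its 38 and 49 reads were not few for this set. The local levels around it were 93.1 reads per kb for Msl1 and 165.6 for Nsl1, whereas no other gene of the set had more than 25.7 and 24.8. At a start of Eif4enif1 1238 bases downstream the reads were 54 and 25.

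Subunits of eIF3, the large scaffold on the small ribosomal subunit, had Nsl1 levels from 1.87 to 11.2 times the local level. Of the 13 genes 12 had Nsl1 at 3 times the local level or more (29.6% of all TSSs did), with a median of 5.46, and 10 had Msl1 at that level (28.8% of all TSSs), with a median of 4.0. Eif3j, whose product is loosely attached, was the exception for Nsl1, with 41 Msl1 and 18 Nsl1 reads at the TSS, 4.14 times (2.97 to 5.61) and 1.87 times (1.11 to 2.95) the local levels. The ratio of Eif3j, 2.40 (1.69 to 3.46), was the highest of the subunits. Eif3m had 43 Msl1 and 127 Nsl1 reads at the TSS, with Nsl1 at 11.2 times the local level (9.32 to 13.3) and Msl1 at 4.46 times (3.23 to 6.01). Within 2 kb its ratio was 0.610 (0.464 to 0.795). Eif3i had 51 and 123 reads at the TSS and a ratio of 0.925 (0.723 to 1.18), and its TSS lies 20 bases from that of the gene 2510006D16Rik. The highest Msl1 level among the subunits was at Eif3f, 6.10 times the local level (4.59 to 7.93) from 55 reads, with Nsl1 at 8.29 times (6.64 to 10.2) from 87.

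Of the genes of eIF2 and its exchange factor eIF2B, 6 of 7 had Nsl1 at 3 times the local level or more (29.6% of all TSSs did) and 5 had Msl1 (28.8%). Eif2b1, the alpha subunit of the exchange factor, had the most Nsl1 reads of the set, 208 at the TSS against 44 of Msl1. Its Nsl1 level was 13.7 times the local level (11.9 to 15.7), its Msl1 level 3.01 times (2.18 to 4.04) and its ratio 0.565 (0.45 to 0.706), the lowest found. The TSS of Gtf2h3, on the other strand, lies 9 bases away, so the reads cannot be given to either gene. The Nsl1 downstream ratio of Eif2b1 was 0.0769 (0.0482 to 0.118). Eif2b3 had 29 Msl1 and 78 Nsl1 reads at the TSS and a ratio of 0.777 (0.576 to 1.04), an interval that reaches beyond the lower threshold. Around a second start 2753 bases downstream it had 22 Msl1 and 11 Nsl1 reads.

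Eif2s1, the alpha subunit of eIF2 that the stress kinases phosphorylate, had 24 Msl1 and 88 Nsl1 reads at the TSS, 2.20 times (1.41 to 3.27) and 7.26 times (5.82 to 8.94) the local levels. The TSS of Atp6v1d is 181 bases away. Downstream the order turned, with ratios of 1.64 (1.0 to 2.75) for Msl1 and 0.159 (0.0938 to 0.258) for Nsl1, and the ratio within 2 kb was 1.13 (0.872 to 1.45). Eif2s2, the beta subunit, was the group's highest, at 2.73 (2.02 to 3.73). Eif2a, whose product can bring a tRNA to the ribosome without eIF2, had 76 Msl1 and 74 Nsl1 reads, 7.88 times (6.21 to 9.86) and 7.35 times (5.77 to 9.23) the local levels. Its Msl1 window of most reads lay 320 bases upstream of its TSS and the Nsl1 window 340 bases downstream. The TSS of Serp1 is 52 bases from it.

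Among the kinases that phosphorylate eIF2alpha, Eif2ak1, which responds to lack of heme, had the highest levels of the set over the local level, 12.5 times (8.53 to 17.6) for Msl1 and 18.1 times (13.6 to 23.7) for Nsl1. It had only 32 and 54 reads at the TSS, against local levels of 2.57 and 2.98 reads per kb. Of its local windows 28.2% of the positions were unique at the Msl1 read length and 26.5% at the Nsl1 read length, while medians over the set were 95.6% and 92.6%. Per unique position the levels of Eif2ak1 were 3.52 and 4.80. Its ratio, which uses no local level, was 0.856 (0.605 to 1.2). Eif2ak4, the sensor of uncharged tRNA, had 24 Msl1 and 21 Nsl1 reads at the TSS, with an Nsl1 downstream ratio of 0.984 (0.548 to 1.8).

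Of the 6 genes for start codon selection and subunit joining, 3 were past the upper ratio threshold (15.5% of all TSSs were) and none past the lower one (16.1% of all TSSs were, about 1 gene in 6). Per unique position the ratio of Eif1 was 1.88 and that of Eif5 1.90, both under the upper threshold of 1.92, which was not recomputed for all TSSs. Eif1a alone of the 3 stayed past it, at 2.29. Within 500 bases none of the 3 was past the upper threshold of that window, with 1.49 at Eif1 and 0.597 at Eif5. The TSS of Eif1a lies within 1 kb of that of another protein-coding gene. Eif1, the guardian of start codon choice, had 50 Msl1 and 43 Nsl1 reads at the TSS, 2.70 times (2.0 to 3.56) and 1.96 times (1.42 to 2.65) the local levels. Its ratio was 2.03 (1.60 to 2.60), but 62.0% of its downstream positions were unique for the Msl1 reads and 55.8% for the Nsl1 reads. Eif5, which makes eIF2 hydrolyse its GTP, had 29 Msl1 and 62 Nsl1 reads at the TSS and 191 and 127 within 2 kb. Its Msl1 downstream ratio of 2.83 (1.87 to 4.40) was the highest among genes with at least 20 Msl1 reads at the TSS, while that of Nsl1 was 0.484 (0.322 to 0.722). The ratio of Eif5 changed side with the window, from 1.92 (1.53 to 2.42) within 2 kb to 0.597 (0.37 to 0.943) within 500 bases. Around a start 1225 bases downstream Eif5 had 88 Msl1 and 30 Nsl1 reads.

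As at Eif4g1, Msl1 lay downstream at Eif6, whose product keeps the ribosomal subunits apart. Eif6 had 11 Msl1 reads at the TSS, 1.13 times the local level (0.562 to 2.02), and 49 Nsl1 reads, 3.55 times (2.63 to 4.69). The Msl1 downstream ratio was 4.12 (2.16 to 8.64) and that of Nsl1 0.245 (0.134 to 0.428). Eif1ad, a gene of the prefix whose role was taken as unsure, had 77 Msl1 and 169 Nsl1 reads at a TSS that lies 168 bases from that of Banf1, 5.74 times (4.53 to 7.17) and 11.6 times (9.89 to 13.4) the local levels. Eif5a, the factor that carries hypusine, had 45 and 56 reads at its TSS. At an annotated start of Eif5a 756 bases downstream the reads were 126 and 33, and the ratio of those was 4.88 (3.30 to 7.39), against 1.03 (0.677 to 1.55) at the first.

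Of the 6 elongation factor genes 2 were at 3 times the local level in each library, Eef1b2 and Eef1d in both. This was close to the shares of all TSSs (28.8% for Msl1 and 29.6% for Nsl1). For Msl1, Eef1b2 was just past that level, at 3.02 (2.20 to 4.04), and Eef2 just short of it, at 2.98 (2.28 to 3.82). The TSS of Ndufs1, on the other strand, lies 3 bases from that of Eef1b2, so the reads there cannot be given to either gene. The counts take Eef1a1 at its outermost start. The medians of the group were 2.62 for Msl1 and 2.28 for Nsl1, and 5 of the 6 had a ratio above the median of all TSSs. Eef2, the translocase, had 61 Msl1 and 35 Nsl1 reads at the TSS and 304 and 138 within 2 kb, a ratio of 2.81 (2.29 to 3.47). Msl1 was denser downstream than at the TSS, with a ratio of 2.38 (1.79 to 3.22), whereas the interval for Nsl1 at 1.22 (0.795 to 1.90) included 1, and the most Nsl1 reads lay 2060 bases downstream. Eef1d had 51 and 52 reads at the TSS. At a start of Eef1d 5784 bases downstream the reads were 27 and 10, with ratios of 1.25 (0.834 to 1.88) and 3.45 (1.62 to 7.98).

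Eef1a1, the most abundant elongation factor gene in most cells, depended on the start chosen. The annotation gives 3 starts with 1 transcript each, and by the rule the outermost was used, with 26 Msl1 and 26 Nsl1 reads, 1.70 times (1.11 to 2.49) and 1.85 times (1.21 to 2.71) the local levels. Around the start 7427 bases downstream there were 95 Msl1 and 32 Nsl1 reads, and Msl1 was 7.34 times the local level (5.94 to 8.97). Around the start 8310 bases downstream there were 111 and 20. The ratios of these windows were 1.28 (0.713 to 2.29), 3.79 (2.52 to 5.85) and 7.09 (4.38 to 12.1) from the outermost to the innermost, so the values taken for Eef1a1 do not describe its inner starts. Of the positions from 500 to 2000 bases downstream of the outermost start, 82.2% were unique at the Msl1 and 71.1% at the Nsl1 read length. The share of unique positions was not determined around the inner starts, so their ratios are not corrected for read length.

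Eef2k, the kinase that stops eEF2, had the same difficulty. At the start with most transcripts there were 9 Msl1 and 16 Nsl1 reads, 0.729 times (0.333 to 1.38) and 1.18 times (0.673 to 1.91) the local levels. Around a start at position -7589 from it there were 40 and 30, or 3.53 times (2.52 to 4.81) and 2.30 times (1.55 to 3.29).

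The 4 Argonaute genes, which act in silencing by small RNAs and share only the old prefix, had ratios from 1.36 to 2.25, of which the lowest, that of Eif2c3, was 0.721 (0.462 to 1.11) within 500 bases and so below the median of all TSSs there. Eif2c2, the gene of the slicing Argonaute, had 29 Msl1 and 12 Nsl1 reads at the TSS, with Nsl1 at 0.901 times the local level (0.465 to 1.57), and the highest ratio of the group, 2.25 (1.68 to 3.03). Eif2c3 had 35 and 62 reads and an Nsl1 level of 5.52 times (4.23 to 7.08), with 14 and 7 reads at a start 78654 bases downstream. Eif2c1, Eif2c3 and Eif2c4 are neighbours on chromosome 4, and the local windows of Eif2c1 overlap those of each of the others.

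The genes also shared features of their start regions that the rule did not use. Over the 63 genes the median G+C content within 500 bases of the TSS was 59.8%, against 57.5% for all TSSs, and the observed to expected CpG ratio was 0.829 against 0.664. From 250 bases before to 50 after the TSS, CCGGAAG was found at 19 of 64 starts (29.7%, against 11.2% of the 21410), GGGCGG at 50 (78.1%, against 44.8%), CACGTG at 10 (15.6%, against 7.77%) and the CCAAT box at 20 (31.3%, against 37.5%). TATAAA was found at 3, namely Eef2, Eif3b and Eif3f (4.69%, against 13.5%). Unlike the G+C and CpG values, the motif shares are over starts without the read filter. Among the 17004 TSSs past that filter, 9302 held GGGCGG, 2319 CCGGAAG and 1597 TATAAA, against 50, 19 and 3 of the 63 genes. AAGATGGCG was found at 2 (3.13%, against 1.94%), GCGCATGCG at 2 (3.13%, against 2.18%), TGACGTCA at 1 (1.56%, against 2.34%) and CTACAATTC at 1 (1.56%, against 0.495%). A start with C followed by 4 pyrimidines, the terminal oligopyrimidine form known from mRNAs of the translation apparatus, was annotated at Eif2s1, Eif3f and Eif3h only (4.69%, against 2.05%). At RefSeq starts (GRCm38.p6) it was found for 1 of the 48 symbols that matched (2.08%), against 2.74% of all 14206 matched, so the direction of this difference depended on the annotation.

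The median Nsl1 level was higher at the genes with CCGGAAG, although Eif2b1 and Eif3f, among the highest in Nsl1, lack it and Eif4ebp2, at 1.93, holds it. The median was 5.52 times the local level at 19 genes, against 2.79 at the 44 without, and the median ratio was 1.15 with the motif and 1.76 without. Over all TSSs the medians for Nsl1 were 4.21 with the motif and 1.83 without, and those for the ratio 1.13 and 1.31, so the difference was not particular to the set. Median Msl1 levels were 3.26 with and 3.0 without it in the set, and 2.87 and 2.09 over all TSSs. The 10 genes whose TSS lies within 1 kb of that of another protein-coding gene had a median Nsl1 level of 7.31, against 2.92 for the others, while Msl1 was at 3.10 and 3.03. Over all TSSs these medians were 3.63 and 1.86 for Nsl1, and 2.92 and 2.09 for Msl1.

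Of the genes, 9 hold a snoRNA on their own strand (14.1%, against 1.18% of all), among them Eif4a1, Eif4a2, Eef2 and Eif4g2. Their median ratio was 1.96 against 1.32 for the others, and over all TSSs it was 1.54 against 1.28. Across the 62 genes the Spearman correlation of the ratio with G+C content was 0.33, against 0.46 across all TSSs, and with the Nsl1 level -0.46, a value that enters the ratio itself. Msl1 and Nsl1 levels correlated at 0.46 across the 63 genes and at 0.49 across all TSSs. Genes are not independent replicates and share both libraries.

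Outside the rule, 21 autosomal genes of other initiation proteins, termination, poly(A)-binding, eIF5A modification and translation signalling from a fixed list were counted in the same way. Msl1 was at least 3 times the local level at 9 of them (28.8% of all TSSs) and Nsl1 at 14 (29.6%). Their median levels were 2.82 for Msl1 and 3.44 for Nsl1, against 2.19 and 2.0 over all TSSs. Median levels above those of all TSSs were thus not particular to the Eif and Eef genes. Of the 20 with enough reads 4 were past the upper (15.5% of all TSSs) and 2 past the lower ratio threshold (16.1%), counts near those shares, and their median ratio was 1.39.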

How the data were processed

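The data were 2 ChIP-seq libraries of mESCs. Single-end reads were placed on mm9 by the authors, who kept unique alignments, and the submitters' processing notes name CASAVA 1.8.2 and Bowtie 0.12.7. The deposited files hold 1 line per aligned read with its position and strand. Each line also carries a score from the authors, always 255, which was left aside. No duplicate filter had been applied: 81.7% of the nuclear Msl1 and 95.4% of the nuclear Nsl1 reads were distinct by position and strand, and 1 read per position and strand was kept. Reads (50 bases for Msl1, 36 for Nsl1) were shifted by 109 and 67 bases to fragment centres, with fragment lengths of 218 and 134 bases from strand cross-correlation on chromosomes 16 and 19. Reads carry no molecular identifiers, so it cannot be checked that they are independent molecules, which the intervals assume.

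Genes and snoRNAs came from GENCODE vM1 on mm9, another annotation than the study's. The TSS is the start with most protein-coding transcripts within 50 bases, the outermost one in a tie. Levels needed at least 20 reads at the TSS in both libraries together and ratios at least 100 within 2 kb. Counts rest on 4 to 160 Msl1 and 5 to 208 Nsl1 reads at a TSS. A position was called unique where its sequence occurs once in the genome at the read length. Intervals are exact Poisson intervals for levels, without the error of the local level, and exact binomial ones for ratios. Python 3.11.15, numpy 2.4.6, scipy 1.17.1, pandas 2.3.3 and matplotlib 3.10.9 were used, and the counting was tested on simulated data.

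The genes, lists and thresholds were chosen with earlier results of these data known. Named in full were the 6 highest and 6 lowest genes by ratio, the 4 highest and 4 lowest by level and the 3 highest by downstream ratio in each library, genes with starts over 1000 bases apart whose ratios differ by over 2 times, and 8 central factors, 32 genes in all. Others are named as an extreme of their group, except Eif4e3, chosen after its values were seen. Alternatives were tried for duplicates, shift, windows, local level, start, filter, G+C reference, neighbours, unique positions and membership. 1 of them, the local level as a median over bins, was chosen after seeing the data.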

Additional observations from a re-analysis of the deposited data

How the results depend on the processing

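Of 73 recomputed values over the main results 66 stayed within a range around the median or within 1.5 times the count. The range was taken from the ranked values of the genes, which are not independent replicates, and not from counting error. For the ratio it was 1.23 to 1.78, which includes the median of all TSSs, 1.28. The median Nsl1 level was 2.35 with a TSS window of 1000 bases on each side. Against the mean level of all autosomes the median levels were 5.22 for Msl1 and 5.0 for Nsl1, and 56 genes had Msl1 at 3 times that level or more, as did 52.0% of all TSSs. The median Msl1 downstream ratio was 0.634 from 1000 to 2000 bases. With the ratio taken within 500 bases, the median was 1.07 and 14 genes were past the lower threshold. In that setting 11 of the 62 genes went from above to below the median of all TSSs, 1.09, and 5 went the other way. Among those past the upper threshold within 2 kb, the ratio of Eif4a2 was 0.946 and that of Eif5 0.597. The median levels stayed above those of all TSSs in 11 of 11 alternatives each, and the median ratio in 8 of 9. With the local level as the median of 5 kb bins, chosen after seeing the data, 39 genes had Msl1 (31.4% of all TSSs) and 36 Nsl1 (30.4%) at 3 times that level. No paired analysis was possible because there is 1 library per antibody and no test. No library could be left out, and kit and read length cannot be told apart from the antibody.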
